A study of Mus musculus with 4 samples.

Results

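Small nucleolar RNAs (snoRNAs) were measured in mouse type 1 conventional dendritic cells (cDC1) that carried or lacked the chemokine receptor XCR1. The members are all probe sets with 1 annotated gene symbol that begins with Snord or Snora, which gave 75 probe sets of 73 symbols out of 41345 probe sets on the array, 23521 of which carry 1 symbol. Of these, 47 are Snord probe sets (C/D box snoRNAs, 47 symbols) and 28 are Snora probe sets (H/ACA box snoRNAs, 26 symbols). They were first described with no limit on signal and then for the 71 probe sets whose highest signal reached 5.43, the median of all deposited values. The limit kept 44 Snord and 27 Snora probe sets.

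Each of the 4 arrays holds total RNA of 1 group, hybridised to a mouse gene array, and its values are log2 signals of robust multi-array averaging (RMA). All groups were C57BL/6 mice of 10 weeks, labelled female, and all cells received lipopolysaccharide (LPS) at 100 ng/ml, a bacterial stimulus that activates dendritic cells. The first group was wild type (WT) with LPS. The second was WT with LPS and recombinant mouse XCL1 at 100 ng/ml, the ligand of XCR1. The third was XCR1-deficient (KO) with LPS, and the fourth was KO with LPS and XCL1 at the same doses. The sources used here name neither the tissue, the time of treatment nor the allele, nor say whether animals were pooled. With 1 array per group there is no replicate error, so no test, standard deviation or p-value accompanies any value, and a difference is given as the log2 value of 1 array minus that of another. A difference past 1.5-fold (0.58 on the log2 scale) is counted, beside the same count over the 12994 one-symbol probe sets past the limit.

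SnoRNAs are short stable nucleolar RNAs that pair with ribosomal RNA (rRNA) and small nuclear RNA. C/D box snoRNAs guide the methylation of riboses, and H/ACA box snoRNAs guide the change of uridine to pseudouridine. A few, among them U3, U8, U13, U14 and U17, serve the cutting or maturation of precursor rRNA. Most vertebrate snoRNAs lie in introns of a host gene, often one for a ribosomal protein or a long noncoding RNA, and are freed when the intron is spliced out and trimmed. All 75 probe sets were found in the RefSeq gene table (GRCm38.p6), and 72 of them lie within the bounds of another gene. For 20 the host is a ribosomal protein gene and for 15 a long noncoding RNA. The 3 without a host are Snord118 (U8), Snord13 (U13) and Snord89. Annotated length ran from 48 to 221 bases in Snord (median 68) and from 56 to 205 bases in Snora (median 117.5).

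Sequence could be read for 2 H/ACA box members, because a microRNA hairpin in the RefSeq tables overlaps their coordinates. These are shown to place a probe set whose value did not pass 1.5-fold in any pair (Snora19) beside one that did with XCL1 in KO cells and between genotypes with XCL1 (Snora34). Capitals mark the hairpin bases that lie within the bounds of the snoRNA, written 5′ to 3′ on the strand of the hairpin. The overlap was found by coordinates, and the strand of the snoRNA was not compared. The Mir3084-2 hairpin lies at chr19:60774329-60774397 on the minus strand of GRCm38.p6 and contains all 56 bases of Snora19, within the host gene Eif3a. The Mir1291 hairpin lies at chr15:98519762-98519878, minus strand, and shares 73 of the 118 bases of Snora34, within the host gene Kansl2.
Mir3084-2 hairpin: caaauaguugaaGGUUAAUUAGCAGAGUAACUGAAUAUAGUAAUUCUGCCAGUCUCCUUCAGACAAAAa
Mir1291 hairpin: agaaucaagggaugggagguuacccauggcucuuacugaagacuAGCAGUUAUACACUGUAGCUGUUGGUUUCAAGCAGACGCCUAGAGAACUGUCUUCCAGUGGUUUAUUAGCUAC

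The host genes Snhg3 and Snhg12 hold the members with the largest XCL1 differences in KO cells apart from Snord13, and their promoters are shown for that reason. Both are noncoding host genes on chromosome 4, and the windows run from 250 bases before to 50 bases after the annotated start, as RefSeq gives it for GRCm38.p6. Capitals mark the letters TATAA, searched on both strands. They stand 22 bases after the annotated start of Snhg3 (chr4:132353637-132353936, minus strand) and 30 bases before that of Snhg12 (chr4:132308428-132308727, plus strand). The same letters occur on either strand in 17 of the 52 host promoters found (32.7%) and in 24.9% of all 32851 promoters in the table. That count takes any position in the window, so it cannot show how common the letters are at a given distance from the start. They are marked as a description only.
Snhg3 promoter: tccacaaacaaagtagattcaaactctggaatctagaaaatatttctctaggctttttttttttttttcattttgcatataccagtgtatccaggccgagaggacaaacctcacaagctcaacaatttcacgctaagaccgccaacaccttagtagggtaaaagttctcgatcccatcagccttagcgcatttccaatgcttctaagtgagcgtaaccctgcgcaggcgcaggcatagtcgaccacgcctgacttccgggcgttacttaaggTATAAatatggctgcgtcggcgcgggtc
Snhg12 promoter: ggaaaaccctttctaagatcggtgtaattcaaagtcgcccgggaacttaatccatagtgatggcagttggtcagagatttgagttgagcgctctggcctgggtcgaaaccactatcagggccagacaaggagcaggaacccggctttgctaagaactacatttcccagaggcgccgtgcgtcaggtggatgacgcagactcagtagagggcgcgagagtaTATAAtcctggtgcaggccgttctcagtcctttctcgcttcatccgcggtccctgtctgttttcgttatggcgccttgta

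Several facts of the 4 arrays bear on every value that follows. Xcr1, the deleted receptor, read 6.42 and 7.19 on the WT arrays and 5.54 and 5.11 on the KO arrays. Of 13 cDC1 markers 12 were measured and 11 passed the limit, with Itgae below it. The summed log2 signal of the 12, which include Xcr1 itself and Itgae, ranged from 98.8 to 101.4, so the deleted gene is part of that range. Markers of B cells (7 of 8 measured) summed to 56.5 and 56.6 on the WT arrays against 52.1 on both KO arrays. T cell markers (5 of 7) ranged from 32.2 to 35.3, neutrophil markers (6 of 6) from 42.2 to 45.7, macrophage and monocyte markers (7 of 7) from 56.2 to 58.2, plasmacytoid cell markers (5 of 5) from 43.2 to 44.5 and red cell markers (3 of 7) from 16.9 to 20.8. With XCL1 in KO cells, the plasmacytoid markers Bst2 (0.97) and Ly6d (-1.12) and the neutrophil marker S100a8 (0.61) passed 1.5-fold. No other listed marker did in that pair, beside 1.54% of all one-symbol probe sets past the limit. These were single markers, as the list medians were 0.22 for plasmacytoid cells and 0.10 for neutrophils. Bst2 and Ly6d went in opposite directions, and the neutrophil markers Ngp (-0.04), Camp (-0.02) and Elane (0.02) stayed near 0. T cell markers were lower, and neutrophil and red cell markers higher, on both KO arrays. Against the label of female mice, the Y-linked genes Eif2s3y, Kdm5d and Uty read between 7.01 and 8.89 on all arrays, and Xist read 7.95 and 7.91 on the WT arrays against 4.64 and 4.57 on the KO arrays. The deposited array names open with a number that is shared within a genotype and differs between genotypes, and whatever it marks cannot be told apart from genotype. The part of these differences in the snoRNA values was not tested. The arrays correlated at 0.981 to 0.992 over the one-symbol probe sets past the limit, and the median of all probe sets was 5.40 to 5.44 on each.

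SnoRNA probe sets gave signal above the limit in most cases. The 71 that reached it are 94.7% of the members (93.6% of Snord, 96.4% of Snora), beside 55.2% of all one-symbol probe sets, and 65 exceeded it on all 4 arrays. The 4 that did not reach it are Snord37, Snord85, Snord91a and Snora35. Just outside the limit, Snora35 peaked at 5.10 and Snord91a at 5.30, and just inside it Snora2b peaked at 5.61 and Snora19 at 5.66. The members past the limit were chosen by these signals, their highest value over the 4 arrays, so the shares carry no test, and the wider set of 75 was chosen by symbol alone.

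The median Snord signal was above the median Snora signal on each array, and the gap was narrowest on the array of KO cells with LPS and XCL1. Past the limit, the Snord median was 9.02 for WT with LPS, 9.05 for WT with LPS and XCL1, 8.77 for KO with LPS and 9.37 for KO with LPS and XCL1. The Snora median was 7.83, 8.06, 7.51 and 8.89 in the same order. The C/D minus H/ACA gap in log2 signal was therefore 1.18, 0.99, 1.26 and 0.48, with a mean of 0.98, and with no limit on signal it was 1.11, 0.77, 1.22 and 0.32. All one-symbol probe sets past the limit had medians of 6.84, 6.89, 6.75 and 6.81. A probe set's signal also depends on its own probes, so a class median describes probe sets and does not rank amounts of RNA.

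**Figure D1:**
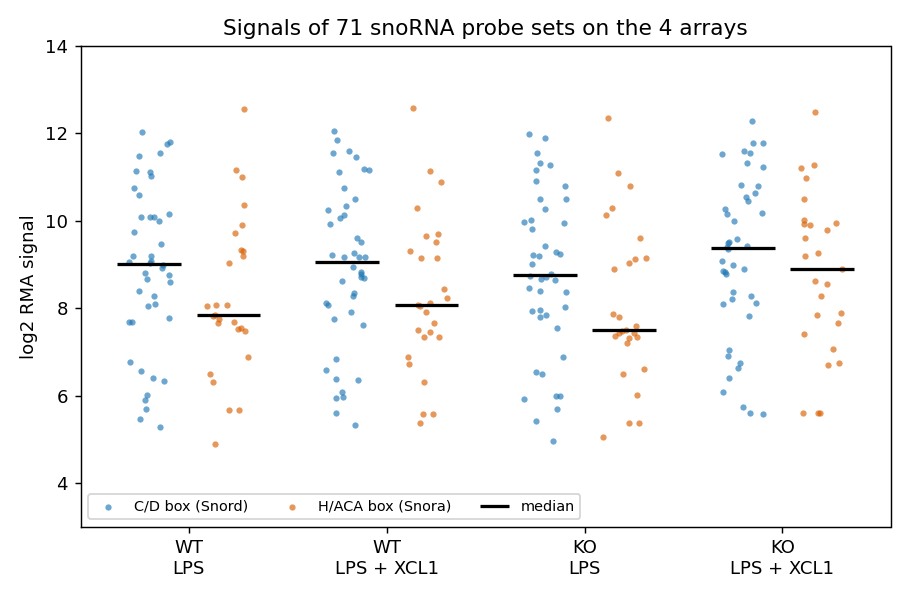
Log2 RMA signal (vertical axis) of the 71 snoRNA probe sets past the limit on each of the 4 arrays, with C/D box probe sets in blue, H/ACA box probe sets in orange and class medians as black bars. The H/ACA median is 7.51 on the KO array with LPS and 8.89 on the KO array with LPS and XCL1, and each array is 1 sample.

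The brightest C/D box probe set was Snord22, which lies in the noncoding host Snhg1, with 12.04, 12.05, 11.97 and 12.29 in the order WT with LPS, WT with LPS and XCL1, KO with LPS, KO with LPS and XCL1. It was highest on the last array and lowest on the third, within 0.31. Snord82, in the nucleolin gene Ncl, read 11.77, 11.59, 11.88 and 11.77, and Snord55 read 11.79, 11.86, 11.55 and 11.55. These 2 did not share the high value on the KO array with XCL1. Snord49b (11.56, 11.55, 11.28, 11.78) and Snord99 (11.47, 11.45, 11.17, 11.54) were lowest in KO cells with LPS alone. So were Snord87 (11.10, 11.15, 10.92, 11.33), Snord16a (11.02, 11.17, 10.79, 11.22), Snord49a (10.59, 10.50, 10.49, 10.81) and Snord110, in which the KO array with XCL1 (10.45) also stayed under both WT arrays (10.75 each). Snord47, in the host Gas5, was instead lower in WT cells (11.14 and 11.10) than in KO cells (11.33 and 11.60). Snord35a, in Rpl13a, varied least among the members in Snhg1, Gas5 and Rpl13a, hosts known for holding many snoRNAs, at 10.09, 10.24, 10.01 and 10.16.

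Among H/ACA box probe sets, Snora33 was brightest, with 12.55, 12.57, 12.36 and 12.50. A second Snora33 probe set read 6.49, 6.73, 6.49 and 7.06, up to 6.06 below the first on the log2 scale, and the pair also differed in the XCL1 difference in KO cells, 0.14 for the bright one and 0.57 for the dim one. The values of Snora33 thus depended on the probe set. The other symbol with several probe sets, Snora19, had identical values in both, 5.66, 5.58, 5.36 and 5.60. Snora23 (11.16, 10.88, 11.10, 11.22), Snora21 (11.01, 11.13, 10.79, 11.27) and Snora62 (9.71, 9.70, 9.59, 9.92) each varied by less than 0.58 over the 4 arrays, and all 3 were highest with XCL1 in KO cells.

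In WT cells, which have the receptor, the snoRNA probe sets on the array with XCL1 read near their level with LPS alone. That held for most one-symbol probe sets. None of the 71 passed 1.5-fold in either direction, beside 0.839% of all one-symbol probe sets past the limit. The median difference was 0.01 for Snord, with 22 of 44 above 0, and 0.01 for Snora, with 15 of 27 above 0 (both just below 0 under other scalings), beside a median of 0.02 and 56.4% above 0 over all one-symbol probe sets. In bulk RNA, fewer cells of a type and less RNA per cell cannot be told apart, here or in any comparison below.

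The largest positive XCL1 differences in WT cells were in dim probe sets or in U17. Snord52 read 5.46 with LPS and 5.96 with XCL1, a difference of 0.50, and Snora2b read 4.90 and 5.37, a difference of 0.47 that lay wholly under the limit. Snora73a and Snora73b, the mouse U17 genes, which serve early cuts of precursor rRNA, were 0.38 and 0.34 higher. Snord19 (0.32) and Snord104 (0.26) followed. The largest negative differences were those of Snord123 (-0.35), Snora23 (-0.28), Snord70 (-0.26), Snora75 (-0.25), Snord23 (-0.22) and Snora30 (-0.20). With no limit on signal, again none of the 75 passed 1.5-fold, beside 1.38% of all one-symbol probe sets.

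In KO cells, which lack the receptor, snoRNA signals were higher on the array with LPS and XCL1 than on that with LPS alone. The difference was larger for H/ACA than for C/D box probe sets. Of the 71 past the limit, 66 were above 0, and 20 passed 1.5-fold, all of them higher, beside 1.54% of all one-symbol probe sets in either direction and 0.816% higher. Of the 20, 7 were among the 44 Snord and 13 among the 27 Snora. The median difference was 0.33 for Snord (40 of 44 above 0) and 0.56 for Snora (26 of 27 above 0), beside 0.04 and 58.4% over all one-symbol probe sets. At 2-fold, 7 members were higher, among 15 of all one-symbol probe sets (0.115%). With no limit on signal, 21 of 75 were higher by 1.5-fold and none lower, beside 1.87% in either direction.

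Of those 7, 5 stood at 2.75-fold or more. Snora73b read 8.08 (WT with LPS), 8.43 (WT with LPS and XCL1), 7.58 (KO with LPS) and 9.61 (KO with LPS and XCL1), a difference of 2.03 in KO cells, or 4.08-fold. Its sister Snora73a read 7.74, 8.12, 7.37 and 9.19, a difference of 1.82. In both U17 probe sets the last array was highest and the third lowest. The 2 genes are close copies in the same host, Snhg3, and probes may read both, so they are not independent values.

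Snora61, an H/ACA guide in Snhg12, read 8.04, 8.23, 7.33 and 9.25, which is 1.92 higher with XCL1 in KO cells, or 3.80-fold. Snord13, which is U13, a C/D box RNA transcribed from its own gene and involved in maturation of small subunit rRNA, read 8.99, 9.17, 8.71 and 10.53, a difference of 1.83. Snora31, in Tpt1, read 7.83, 8.04, 7.43 and 8.89, a difference of 1.46. All 3 followed the order of U17, with the highest value on the KO array with XCL1 and the lowest on the KO array without it.

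Snora7a, in the ribosomal protein gene Rpl32, read 7.82, 7.90, 7.51 and 8.55 (difference in KO cells 1.05). Snora16a, in Snhg12, read 9.03, 9.14, 8.91 and 9.91 (1.00). Snora15, in the chaperonin gene Cct6a, read 9.31, 9.32, 9.14 and 10.02 (0.87). In each of the 3 the KO array with XCL1 stood clearly above the other arrays, which lay closer to one another. The remaining H/ACA members past 1.5-fold were Snora28, Snora44, Snora69, Snora20, Snora34 and Snora41, with differences of 0.63 to 0.82. Snora34, whose hairpin overlap is printed above, read 10.37, 10.28, 10.29 and 10.99.

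Of the C/D box members past 1.5-fold other than U13, Snord17 read 9.05, 9.27, 8.67 and 9.50 (difference in KO cells 0.83) and Snord104 read 10.09, 10.35, 9.81 and 10.62 (0.81). Snord92, in Wdr43, read 6.39, 6.35, 5.93 and 6.62 (0.69). The XCL1 array of KO cells was highest in all 3, but it exceeded the WT array with XCL1 by 0.28 at most. Snord71 (0.63), Snord52 (0.62) and Snord15a (0.60) completed the group. Snord52 started at 4.95, under the limit, and with signals raised to the limit its difference was 0.14. Snord118 (U8), which serves maturation of large subunit rRNA, read 6.56, 6.59, 6.54 and 7.05, a difference of 0.51 that did not pass 1.5-fold.

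A handful of members did not share the direction. Snord70, used as a reference RNA in microRNA PCR, read 8.61, 8.35, 9.19 and 8.82, lower with XCL1 in both genotypes (-0.26 in WT, -0.37 in KO). Snord83b, in Rpl3, read 7.67, 7.75, 8.03 and 7.82, a difference of -0.21 in KO cells. The other 3 below 0 were Snord82 (-0.12), Snord123 (-0.10) and Snora30 (-0.07). Snord55 was at 0.00.

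**Figure D2:**
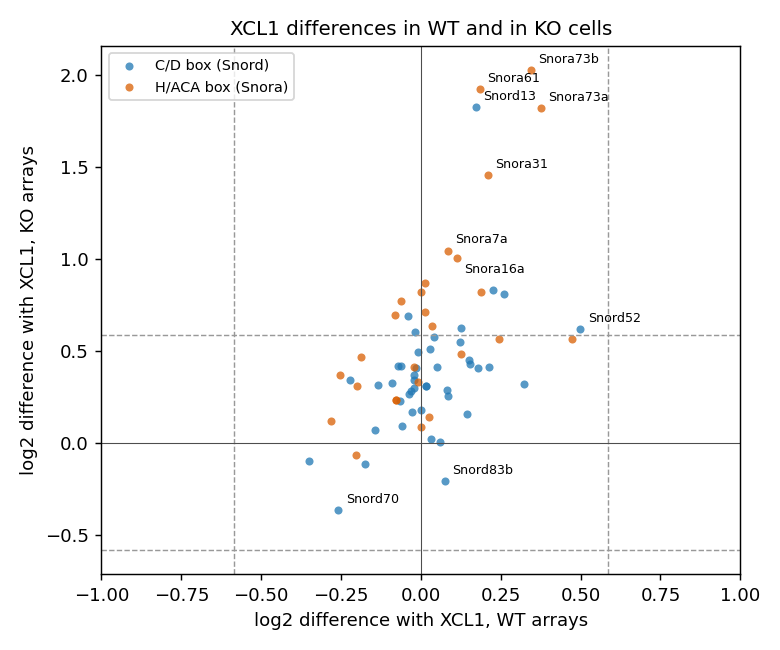
Log2 difference with XCL1 in WT cells (horizontal axis) and in KO cells (vertical axis) for the 71 snoRNA probe sets past the limit, C/D box in blue and H/ACA box in orange, with dashed lines at 1.5-fold. All points lie within 1.5-fold on the horizontal axis, and 20 lie above it on the vertical axis, led by Snora73b at 2.03.

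The difference between the XCL1 effects, WT minus KO, uses all 4 arrays and was negative for most snoRNAs. Of the 71, 19 passed 1.5-fold, all lower, beside 3.89% of all one-symbol probe sets in either direction and 2.15% lower. The median was -0.30 for Snord, with 39 of 44 below 0, and -0.62 for Snora, with 27 of 27 below 0. The 15 Snora and 4 Snord past 1.5-fold included 5 at 2-fold, led by Snora61 (-1.74), Snora73b (-1.69), Snord13 (-1.65) and Snora73a (-1.44). At the other end stood Snord83b (0.28), Snord70 (0.11), Snord55 (0.06) and Snord90 (0.01), none of them past 1.5-fold. With no limit on signal, 19 of 75 passed 1.5-fold, all lower, beside 5.47% in either direction. Without replicates, the spread of such a difference of differences is unknown.

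KO cells with LPS alone had slightly lower Snora signals than WT cells with LPS alone, and a shift in Snord that depended on the scaling. On the deposited scale the only member past 1.5-fold was Snora61, lower by 0.72 on the log2 scale, beside 2.52% of all one-symbol probe sets in either direction and 1.16% lower. The median difference was -0.11 for Snord (32 of 44 below 0) and -0.21 for Snora (23 of 27 below 0), beside -0.04 over all one-symbol probe sets, of which 41.5% were above 0. With each array centred on its median, the Snord median was -0.023 (23 of 44 below 0) and the Snora median -0.12 (20 of 27 below 0). Both that centring and cyclic loess added Snord70 and Snord90 as higher by 1.5-fold. With no limit on signal, Snora61 was still the only member past 1.5-fold, beside 2.48%. After Snora61, the lowest were Snord52 (-0.51), Snora73b (-0.50), Snord110 (-0.48), Snord69 (-0.46) and Snord92 (-0.46). The highest were Snord70 (0.58, just under 1.5-fold), Snord90 (0.53), Snord83b (0.36), Snord58b (0.35), Snora75 (0.23) and Snord47 (0.19).

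KO cells with LPS and XCL1 had higher snoRNA signals than WT cells with LPS and XCL1. Of the 71, 14 passed 1.5-fold, all higher, beside 4.1% of all one-symbol probe sets in either direction and 2.19% higher. The median difference was 0.22 for Snord (38 of 44 above 0, 3 past 1.5-fold) and 0.43 for Snora (25 of 27 above 0, 11 past 1.5-fold), beside -0.03 over all one-symbol probe sets, of which 45.1% were above 0. At 2-fold, 4 members were higher, beside 0.331%. With no limit on signal, 14 of 75 were again higher by 1.5-fold, beside 3.92% in either direction. This comparison shares the KO array with LPS and XCL1 with the XCL1 comparison in KO cells, so the counts of the comparisons are not separate evidence. Snord13 led with 1.37, or 2.58-fold, followed by Snora73b (1.18), Snora73a (1.07), Snora61 (1.02), Snora31 (0.85) and Snora75 (0.85). Snora75, in Ncl, read 9.91, 9.66, 10.14 and 10.50, and both its KO values lay above both its WT values.

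Snord58b (10.15, 10.12, 10.50, 10.78) and Snord72 (7.67, 7.61, 7.80, 8.22), in the ribosomal protein genes Rpl17 and Rpl37, were the other C/D box members past 1.5-fold in this pair. Their KO values also lay above their WT values under both treatments. Snord90, in Rc3h2, did so with nearly equal differences, 0.53 with LPS and 0.52 with XCL1 added, at levels of 6.34, 6.37, 6.88 and 6.90. The lowest differences were those of Snord52 (-0.39), Snord55 (-0.31), Snord110 (-0.30), Snora78 (-0.18), Snord88c (-0.09) and the bright Snora33 probe set (-0.08), none past 1.5-fold.

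The direction of the genotype difference turned between the treatments for most members. Of the 71, 47 were below 0 with LPS and above 0 with LPS and XCL1, 16 were above 0 in both pairs, 8 were below 0 in both, and 0 turned the other way. With cyclic loess 44 turned in this way, and with arrays centred on the median 38 did, while 28 were above 0 in both. No member passed 1.5-fold in the same direction in both pairs, and Snora61 passed it in opposite directions (-0.72 and 1.02). These patterns over both pairs were not counted for all one-symbol probe sets, so how unusual they are was not tested. In single pairs, 41.5% of all one-symbol probe sets past the limit were above 0 with LPS, and 45.1% with LPS and XCL1. For the 71 members these shares were 22.5% and 88.7%. Of the 71, 55 had their highest value on the KO array with LPS and XCL1 (33 Snord, 22 Snora), beside 26.4% of all one-symbol probe sets, and 48 had their lowest on the KO array with LPS (29 Snord, 19 Snora), beside 35.2%. None was lowest on the KO array with XCL1, beside 23.5%. On that array 9 of 27 Snora and 1 of 44 Snord exceeded the highest of the other 3 arrays by 1.5-fold, as did 0.192% of all one-symbol probe sets.

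**Figure D3:**
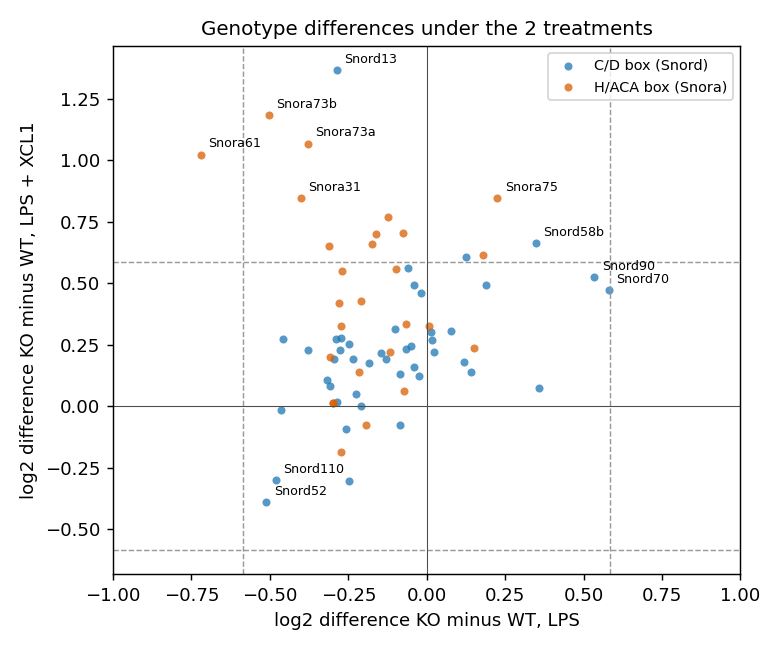
Log2 difference KO minus WT with LPS (horizontal axis) and with LPS and XCL1 (vertical axis) for the 71 snoRNA probe sets past the limit, C/D box in blue and H/ACA box in orange, with dashed lines at 1.5-fold. The upper left part, lower in KO with LPS and higher with XCL1 added, holds 47 points (44 with cyclic loess, 38 with centred arrays), and Snora61 lies past both dashed lines.

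The host genes that could be measured stayed within 1.5-fold on the same arrays, as did most one-symbol probe sets. Past the limit, 54 of the 71 members had a host with its own one-symbol probe set, 38 hosts in all. With XCL1 in KO cells the members had a median difference of 0.41 and the hosts one of 0.00, with a host range of -0.28 to 0.52. In that pair 0 hosts passed 1.5-fold, beside 1.54% of all one-symbol probe sets past the limit. With 38 hosts, 0 is near that share. The snoRNA exceeded its host in 48 of 54 cases, 25 of 30 Snord and 23 of 24 Snora. With XCL1 in WT cells it did so in 28 of 54 cases. Between genotypes with XCL1 it did so in 45 of 54, with medians of 0.27 for members and 0.01 for hosts. Rabggtb, a known snoRNA host that holds no member here, differed from these hosts, at 6.67, 7.46, 6.31 and 8.20, which is 0.79 higher with XCL1 in WT cells and 1.89 higher in KO cells. A probe set shared by Rabggtb and Snord45c was at 7.37, 7.42, 7.50 and 7.40.

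In some hosts the members differed among themselves, and in others they lay closer together. Snhg12 holds Snora61, Snora16a, Snora44 and Snord99, whose XCL1 differences in KO cells were 1.92, 1.00, 0.82 and 0.37, while Snhg12 itself was at -0.07 (6.17, 6.24, 6.31, 6.25). Snhg3, host of both U17 genes, was at 0.31 (6.996, 6.953, 6.658, 6.973). In Ncl, Snora75 was at 0.37 and Snord82 at -0.12, and in Nop58, which encodes a C/D box core protein, Snord11 was at 0.42 and Snord70 at -0.37. In Rpl3, Snord43 was at 0.41 and Snord83b at -0.21, and in Gnl3, Snord19 and Snord69 were at 0.32 and 0.31. In Rps3a1, Snord73a and Snord73b were at 0.41 and 0.57. Kansl2, itself at 0.52, holds Snora34 (0.70) and Snora2b (0.56, or 0.18 with signals raised to the limit). By kind of host, the median was 0.49 for 15 members in noncoding hosts (7 past 1.5-fold), 0.41 for 20 in ribosomal protein genes (3), 0.32 for 33 in other genes (9) and 0.51 for the 3 without a host (1). All of these calls were higher, beside 0.816% of all one-symbol probe sets past the limit. In the same order 6, 8, 13 and 0 of the members were Snora, and the 7 include both U17 probe sets, which are not independent. A difference between kinds of host was not tested.

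**Figure D4:**
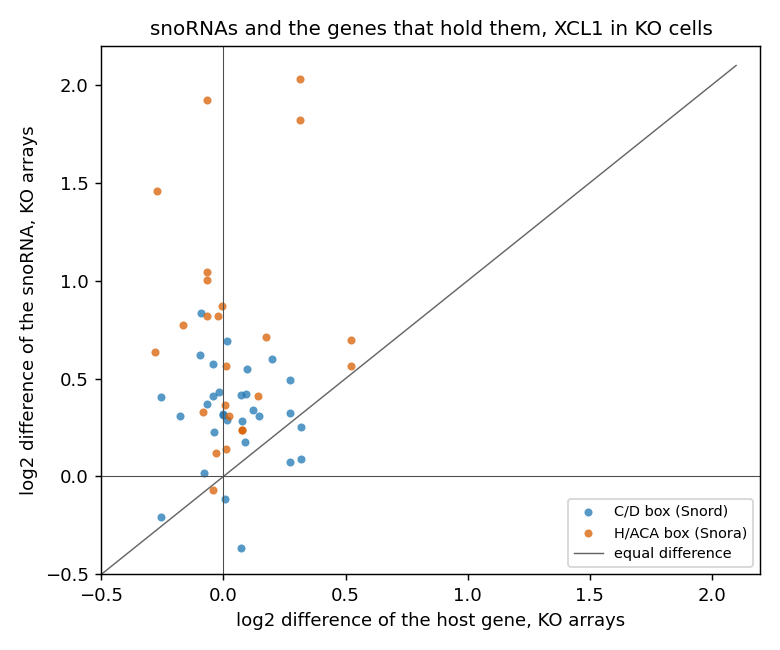
Log2 XCL1 difference in KO cells of the host gene (horizontal axis) and of the snoRNA (vertical axis) for 54 snoRNA probe sets whose host was measured, C/D box in blue and H/ACA box in orange, with a line at equal differences. Host values lie between -0.28 and 0.52, and 48 snoRNA points lie above the line.

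Across members, the XCL1 difference in KO cells tended to be larger in snoRNAs with longer RefSeq entries, but length and class cannot be told apart. Over 70 probe sets with different values on the same arrays, it correlated with annotated length at r = 0.40 (rho = 0.34), against r = 0.31 (rho = 0.19) within 44 Snord and r = 0.19 (rho = 0.12) within 26 Snora. Its correlation with mean signal over the same 70 was r = -0.07 (rho = -0.09), and with the host's difference over 53 it was r = 0.06 (rho = -0.10). In bins chosen after the values were seen, the median was 0.32 for 27 members under 70 bases, 0.34 for 18 of 70 to under 100 bases, 0.60 for 16 of 100 to under 130 bases, 15 of them Snora, and 0.56 for 10 of at least 130 bases. In the last bin the 3 Snord had a median of 0.60 and the 7 Snora one of 0.41. Snora61, annotated at 62 bases, and Snora23, at 184 bases with a difference of 0.12, went against the relation. The bin under 70 bases holds 4 Snora probe sets, of Snora19, Snora20 and Snora61, beside a Snora median of 117.5 bases. Whether each RefSeq entry spans the whole RNA was not tested, so the relation is one with annotated length only.

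**Figure D5:**
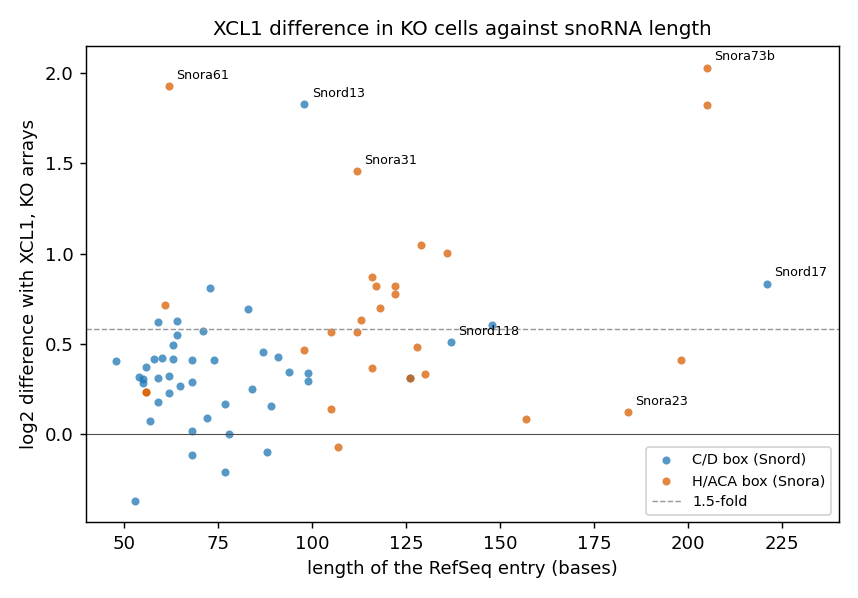
Log2 XCL1 difference in KO cells (vertical axis) against the annotated RefSeq length in bases (horizontal axis) of the 71 snoRNA probe sets past the limit, C/D box in blue and H/ACA box in orange, with a dashed line at 1.5-fold. Snora73b at 205 bases and Snora61 at 62 bases both lie near 2, and most C/D box points lie under 100 bases.

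By mean signal, 3 of 15 members under 7, 8 of 23 from 7 to under 9, 7 of 13 from 9 to under 10 and 2 of 20 at or above 10 were higher by 1.5-fold with XCL1 in KO cells. The bins differ in class, with 8 Snord and 5 Snora from 9 to under 10, and 15 Snord and 5 Snora at or above 10. Shares of all one-symbol probe sets were not computed by bin, and without bins 0.816% were higher. The 2 bright ones were Snord104 and Snora34, and brighter members such as Snord22 and the bright Snora33 probe set stayed under the threshold.

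U3, the most abundant processing snoRNA, is a C/D box RNA whose mouse genes carry Rnu3 symbols and so are not members. Rnu3a read 7.73, 7.80, 7.01 and 9.27, a difference of 2.26 with XCL1 in KO cells, the highest of all 12994 one-symbol probe sets in that comparison, and of 0.08 in WT cells. A probe set shared by the Rnu3b genes read 11.55, 11.51, 11.26 and 12.23 (0.97 in KO cells). Like U13 and U17, both were highest on the KO array with XCL1 and lowest on the KO array without it. U14 (Snord14) was measured only by probe sets with several symbols: the one shared with Hspa8 differed by 0.75 and the one shared with Rps13 by 0.62 in KO cells. Such probe sets cannot separate a snoRNA from its host. Past the limit, 26 several-symbol snoRNA probe sets with different values had a median of 0.29 in KO cells, with 21 above 0 and 4 past 1.5-fold, among them both probe sets of Snora17 with Snhg7 (2.16 and 1.46). The lowest was that of Snord68, a PCR reference RNA, with Rpl13 (-0.32). RefSeq snoRNAs of other symbols past the limit were mixed in KO cells. AF357399 was at 0.78, Gm12238 at 0.21, Gm26504 at 0.11 in probe sets of identical values, and DQ267102, near the limit, at -0.38.

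Other small noncoding RNAs were mixed. The 6 probe sets of small Cajal body RNAs (Scarna), which guide the same 2 modifications on small nuclear RNA, were 0.11 to 1.07 higher with XCL1 in KO cells, with Scarna8 highest. The Y RNAs Rny3 and Rny1 were at 0.60 and 0.46. The 7SK RNA Rn7sk, in 2 probe sets, was at 0.09 and 0.10, the RNase P RNA Rpph1 at 0.07 and the minor spliceosomal Rnu11 at -0.03. Within the same 2 kinds, the RNase P-type Rprl2 was at 0.43 and the minor spliceosomal Rnu12 at 0.42, and both passed 1.5-fold in the WT minus KO difference of XCL1 effects (-0.59 each). For 180 microRNA precursors past the limit the median was 0.01, with 6 higher and 6 lower by 1.5-fold (3.33% each way). In either direction that is 6.67%, beside 1.54% of all one-symbol probe sets.

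The proteins of snoRNA particles stayed within 1.5-fold at the level of messenger RNA, with 1 exception. Most one-symbol probe sets stayed within it too. Of the C/D box core, Nop56, Nop58 and Snu13 were at 0.09, 0.07 and 0.09 with XCL1 in KO cells, and Fbl, the methyltransferase, has no one-symbol probe set. Of the H/ACA box core, Dkc1, the pseudouridine synthase, was at 0.04, Nhp2 at 0.07, Nop10 at 0.17 and Gar1 at 0.41. Measured were 13 genes of snoRNP assembly, 10 of intron release and trimming and 17 of the U3 particle and rRNA processing. Of these, 0 passed 1.5-fold with XCL1 in either genotype or between genotypes with LPS. The shares of all one-symbol probe sets past the limit were 0.839% and 1.54% with XCL1 in WT and KO cells. Between genotypes with LPS the share was 2.52%. In lists this short, 0 is near those shares. Between genotypes with XCL1, Shq1, an assembly factor of H/ACA particles, was lower by 0.70 on the log2 scale. It was the only 1 of the listed genes past 1.5-fold, beside 4.1% of all one-symbol probe sets. The 55 one-symbol ribosomal protein genes past the limit had a median of 0.01 with XCL1 in KO cells. Of them 0 were higher and 1 lower by 1.5-fold (1.82%), beside 1.54% of all one-symbol probe sets.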

How the data were processed

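Gene-level log2 signals were deposited by the authors as 1 table of 4 arrays, named in the labels as RMA gene-level signal of a mouse gene array, from TRIzol total RNA. RMA corrects background, forces a common distribution on every array and combines probes into 1 value, so a shift shared by most transcripts would not be seen. No array holds counts or a depth, and with 1 array per group the precision is unknown. Probe sets were named from the platform annotation (25335 listed: 23521 with 1 symbol, 1814 with several; 16010 unnamed and not used). Lengths and hosts (a gene whose bounds contain the snoRNA) came from RefSeq. Log2 differences, counts at 1.5-fold and medians were computed in Python 3.11.15 with pandas 2.3.3, and cyclic loess in limma 3.58.1. The counting was tested on simulated data.

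Named members were the brightest 10 Snord and 6 Snora, the most extreme 6 in each direction per pair of arrays (4 for the difference of effects), rRNA processing snoRNAs, PCR reference RNAs, members of known multi-snoRNA hosts and those nearest the limit. Others past 1.5-fold or sharing a host were named after their values were seen. The members and lists were chosen with earlier results of these data known. Alternatives were another fold threshold, other limits, other scalings, other rules for several probe sets and the addition of several-symbol probe sets.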

Additional observations from a re-analysis of the deposited data

Results flagged for a closer look

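The genotype difference of the snoRNAs pointed in opposite directions under the 2 treatments. The median KO minus WT difference of the Snord probe sets was -0.11 with LPS and 0.22 with LPS and XCL1. With arrays centred on the median the first of these was -0.023, so for Snord the opposite direction rests on a value near 0. For the Snora probe sets it was -0.21 and 0.43. Snora61 was at -0.72 and 1.02, past 1.5-fold each way. With 1 array per group, the difference between the treatments was not tested.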

How the results depend on the processing

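The 16 summary results (counts at 1.5-fold, class medians and the C/D minus H/ACA gap) kept their values, or moved little, with no limit on signal, a limit of 6.91, the highest or the mean probe set per symbol, and signals raised to the limit. Only the medians of XCL1 in WT, which lie near 0, changed sign under any of these or the scalings below: Snord to -0.0048 with the limit of 6.91 and -0.0016 with cyclic loess, Snora to -0.0080 with cyclic loess and -0.035 when centred. At a 2-fold threshold the counts were 7 for XCL1 in KO, 5 for WT minus KO, 0 for KO minus WT with LPS and 4 for KO minus WT with LPS and XCL1. Cyclic loess gave 3 members past 1.5-fold for KO minus WT with LPS, and centring each array on its median also gave 3 (2 higher and 1 lower in each). Centring moved the Snord medians to -0.039 (XCL1 in WT, now below 0), 0.27 (XCL1 in KO), -0.023 (KO minus WT with LPS) and 0.30 (KO minus WT with LPS and XCL1). Adding the several-symbol snoRNA probe sets, an alternative chosen after seeing the data, moved the mean C/D minus H/ACA gap from 0.98 to 0.64. The causes of these moves were not tested, other than the fewer calls that a higher threshold allows. Leaving out the imprinted Snord113 to Snord116 families gave no value, since no member belongs to them. No paired analysis was possible because each group has 1 array. Signals near the limit, as in Snord52 and Snora2b, leave their differences uncertain.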
